A study of Mus musculus with 12 samples.

Results

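Mitochondria carry their own ribosome, the mitoribosome, which translates the few mRNAs encoded in mitochondrial DNA, all for subunits of the respiratory chain and the ATP synthase. Its large and small subunits are built on ribosomal RNAs from mitochondrial DNA, whereas every protein in them is encoded in the nucleus, made in the cytosol, and imported. Many of these proteins descend from bacterial ribosomal proteins, and the others were added in the mitochondrial lineage. In steroidogenic cells of the adrenal cortex, the first and the last steps of corticosteroid synthesis take place in mitochondria.

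The genes described here are the protein-coding genes whose mouse symbol starts with *Mrpl* or *Mrps* and a digit, with pseudogenes left out. There were 78 of them among the 49585 genes counted, 49 named for the large subunit (*Mrpl*) and 29 for the small subunit (*Mrps*). They lay on 17 chromosomes, with 11 on chromosome 11 and 8 on chromosome 17. The symbols do not follow the structure of the ribosome in each case, as MRPS18A and MRPS30 are known to sit in the large subunit and MRPS36 belongs to the 2-oxoglutarate dehydrogenase complex. By structure, 51 genes therefore encode large-subunit and 26 encode small-subunit proteins. The other proteins of the mitoribosome carry other names (*Dap3*, *Ptcd3*, *Gadd45gip1*, *Aurkaip1*, and *Chchd1*) and are described after the members.

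RNA sequencing was done on the adrenal cortex of 12 mice, 4 in each of 3 groups. LFD mice received a low-fat diet (10% of energy from fat) for 20 weeks, HFD mice a high-fat diet (60%) for 20 weeks, and icosapent ethyl–treated mice the same high-fat diet with icosapent ethyl, a purified ethyl ester of the omega-3 fatty acid EPA, mixed in for the last 10 weeks. The study's methods describe male wild-type C57BL/6J mice that were 6 weeks old when the diets began, whereas the labels give the genotype Fads2-/- for the 12 mice, and *Fads2* was measured at 452 to 2181 CPM in each of them. LFD mice are numbered 2, 5, 6, and 7 in the labels, and mice of the other groups 1 to 4.

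Levels are given as CPM, that is, counts per 1000000 of a library size adjusted by the trimmed mean of M values (TMM). The libraries held 34785979 to 67295963 counts on genes, and a tested member had between 312 and 8159 counts in a mouse. All 12 markers of the cortex were detected in each mouse and summed to between 50103 and 112346 CPM. The 12 markers of chromaffin cells, the cells of the adrenal medulla, were detected in each mouse as well and summed to between 3040 and 22168 CPM.

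The promoters of these genes are shown first, because the members are scattered over the genome and share a function. RefSeq windows (GRCm38.p6) from 250 bases before to 50 bases after the start were found for 69 of the 78 members, in 75 windows, and 9 members were matched to none. A set of 4 motifs was searched on both strands as exact letters: GCGCATGCG, the core of the site of nuclear respiratory factor 1 (NRF1), CCGGAAG, the core bound by ETS factors such as GABPA, AAGATGGCG, the core of a YY1 site, and CCAAT, the site of NF-Y. No matches of different motifs overlapped in the windows of members. The NRF1 core lay in 9.33% of the members' windows, against 1.75% of all 32851 windows and 3.16% of the 15120 windows of genes that were tested. The ETS core lay in 34.7% of the members' windows, against 8.86% of all windows and 15.4% of those of tested genes. The YY1 core was found in 10.7%, 1.4%, and 2.54%, respectively, and CCAAT in 40%, 37.4%, and 37%. At least 1 of the NRF1, ETS, and YY1 cores was present in 48% of the members' windows and in 46.7% of the 75 windows of cytosolic ribosomal proteins. These matches are descriptions of sequence and do not show binding.

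**Figure D1:**
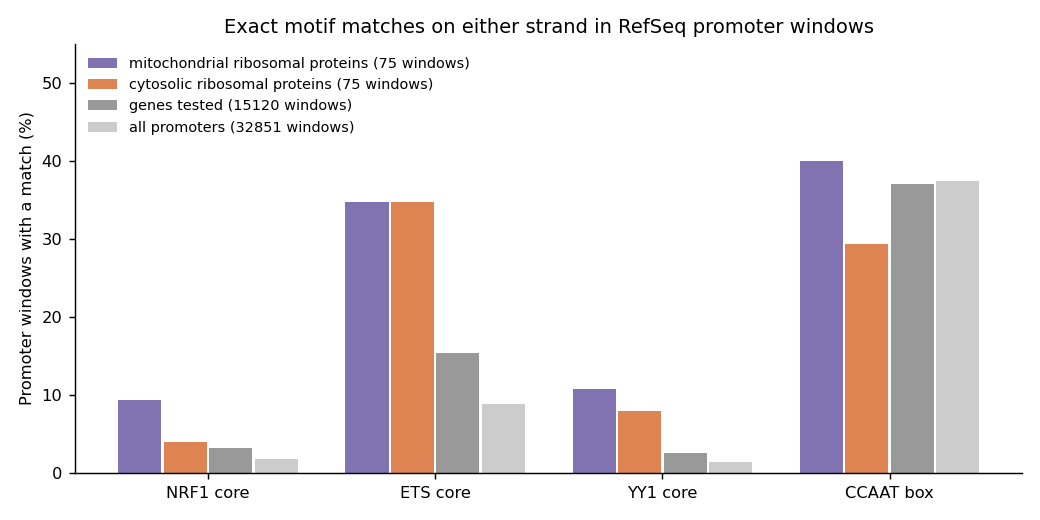
Share of RefSeq promoter windows (percent, vertical axis) that hold an exact match of 4 motifs on either strand, for mitochondrial ribosomal proteins, cytosolic ribosomal proteins, genes tested, and all promoters. The NRF1, ETS, and YY1 cores were found in 9.33%, 34.7%, and 10.7% of members' windows, and the bars for all promoters stand at 1.75%, 8.86%, and 1.4%.

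The NRF1 core was found in 7 members, whose stretches around the match are printed because they include that of *Mrps18b*, the member with the largest fitted fold change between diets. Each runs 5′ to 3′ on the strand of the gene in GRCm38.p6, from 20 bases before to 20 bases after the match or to the last base before the start, with the NRF1 core in capitals (CGCATGCGC is the same core on the opposite strand, and a core read on both strands has 10 capitals). The *Mrpl32* window held a match at each of 2 places. The sequences in order are from chr11:97041427-97041475 (plus strand), chr7:105811088-105811118 (minus), chr11:58171611-58171659 (plus), chr13:14613095-14613144 and chr13:14613038-14613080 (minus), chr16:84735340-84735389 (minus), chr3:94443288-94443335 (plus), and chr17:35916636-35916684 (minus).
Mrpl10: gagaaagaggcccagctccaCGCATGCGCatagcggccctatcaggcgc
Mrpl17: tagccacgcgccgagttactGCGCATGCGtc
Mrpl22: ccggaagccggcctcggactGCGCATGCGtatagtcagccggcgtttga
Mrpl32 upstream match: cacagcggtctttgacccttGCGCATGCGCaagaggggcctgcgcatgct
Mrpl32 downstream match: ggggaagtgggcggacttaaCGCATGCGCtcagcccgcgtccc
Mrpl39: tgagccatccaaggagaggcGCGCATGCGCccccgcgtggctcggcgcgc
Mrpl9: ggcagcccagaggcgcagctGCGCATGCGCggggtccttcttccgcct
Mrps18b: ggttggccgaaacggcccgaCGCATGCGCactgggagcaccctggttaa

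In *Mrps18b* the core lay from -224 to -216 relative to the start, farther upstream than in the other members, where matches fell between -135 and -3. The ETS core was found in 26 members, and its stretch is printed for the 5 genes that had one before the start among those named for the largest fold changes between diets in either direction, with the ETS core in capitals (CTTCCGG is the core on the opposite strand). The sequences are from chr14:20393538-20393584 (minus), chr11:94653716-94653762 (plus), chr7:100583138-100583184 (minus), chr9:98601680-98601710 (minus), and chr13:99344718-99344764 (plus).
Mrps16: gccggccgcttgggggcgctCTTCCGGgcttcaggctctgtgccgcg
Mrpl27: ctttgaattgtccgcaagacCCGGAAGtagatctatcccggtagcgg
Mrpl48: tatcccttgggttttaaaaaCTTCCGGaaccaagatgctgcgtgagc
Mrps22: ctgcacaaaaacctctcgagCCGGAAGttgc
Mrps27: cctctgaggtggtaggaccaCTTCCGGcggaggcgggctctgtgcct

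The mitochondrial ribosomal protein mRNAs were expressed in each mouse and together made up 0.357% to 0.447% of the counts. Their summed level was 3942, 3574, 3958, and 3955 CPM in LFD mice 2, 5, 6, and 7. In HFD mice 1 to 4 it was 3812, 3943, 4043, and 4219 CPM, and in icosapent ethyl–treated mice 1 to 4 it was 3906, 4022, 3931, and 4166 CPM. The groups overlapped, and LFD mouse 5 was the lowest of the 12 mice. The group means were 3857 ± 189 CPM in LFD, 4004 ± 172 CPM in HFD, and 4006 ± 118 CPM in icosapent ethyl–treated mice (SD, n = 4 each).

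The *Mrpl* genes summed to 2506 ± 121 CPM in LFD, 2580.0 ± 115 CPM in HFD, and 2585 ± 73.4 CPM in icosapent ethyl–treated mice (SD, n = 4). The *Mrps* genes summed to 1352 ± 68.5, 1424 ± 57.5, and 1421 ± 47.0 CPM, respectively. These sums follow the symbols, so that *Mrps18a*, *Mrps30*, and *Mrps36* are in the *Mrps* sum. Neither the sums nor their ratio were computed by structure. The ratio of these sums was 1.863, 1.860, 1.848, and 1.844 in the LFD mice, 1.813, 1.788, 1.822, and 1.823 in the HFD mice, and 1.802, 1.805, 1.858, and 1.812 in the icosapent ethyl–treated mice. The ratio was thus lower in each HFD mouse than in each LFD mouse, by a difference of a few hundredths, and icosapent ethyl–treated mouse 3 was within the range of the LFD mice. This ratio was looked at after the values were seen and is given without a test.

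**Figure D2:**
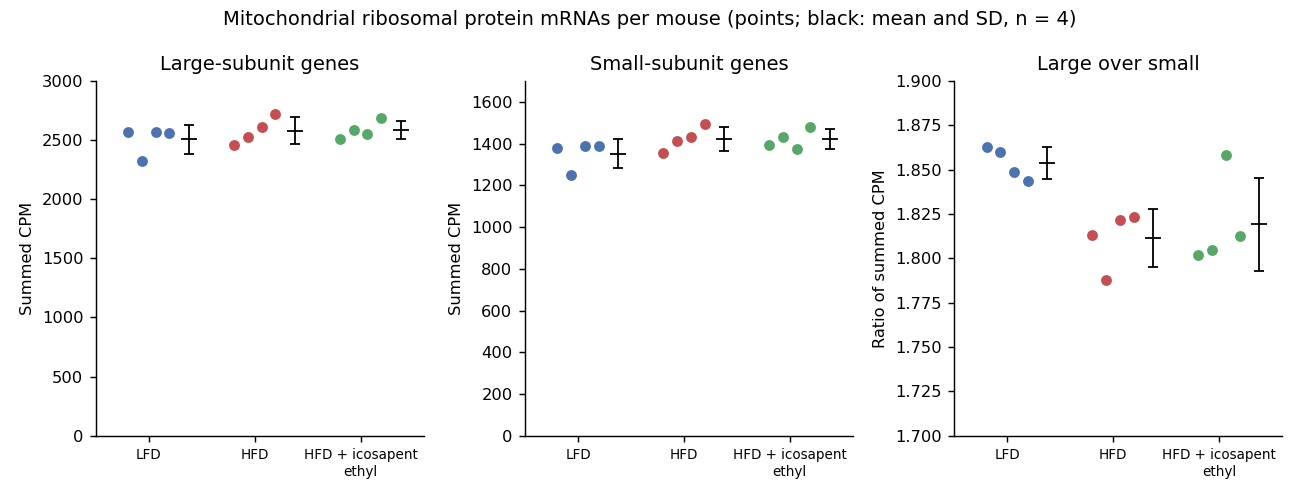
Summed CPM of the 49 *Mrpl* and the 29 *Mrps* genes and the ratio of these sums (vertical axes, the ratio axis not starting at 0) in each mouse by group; black marks are mean and SD of 4 mice. The groups overlap in both sums, with LFD mouse 5 lowest at 2324 and 1249 CPM, and the ratios of LFD (1.844 to 1.863) and HFD mice (1.788 to 1.823) do not overlap.

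Per kilobase of exon, the highest levels over the 12 mice were those of *Mrps21* (75.8 CPM per kilobase), *Mrpl54* (73.9), *Mrpl10* (73.1), *Mrps12* (62.5), and *Mrpl14* (60.9). MRPL10 anchors the stalk of the large subunit that recruits translation factors, and MRPS12 is a homolog of the bacterial protein at the decoding center. At the low end were *Mrps10* (5.11 CPM per kilobase), *Mrpl15* (4.82), *Mrps35* (4.33), and *Mrpl33* (2.23). The exon length is that of all annotated exons of a gene together, so that a gene with long, little-used exons comes out low. *Mrpl12*, which encodes the L7/L12 stalk protein and has been described as a partner of the mitochondrial RNA polymerase, stood at 55.7 CPM per kilobase.

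*Mrpl53* (ENSMUSG00000030037, chromosome 6 from 83109040 to 83109939) had 0 counts in each mouse and was the 1 member that passed the filter on low counts in none of the comparisons. Of its exon bases, 88.0% also belong on the same strand to *Gm42688*, a gene that had 1 to 13 counts per library. The counting program sets aside reads that fit 2 genes, so that this 0 gives no information on the mRNA. Other members shared less of their exons with a same-strand neighbor, among them *Mrps34* (37.0% with *Nme3*), *Mrps18c* (23.2%), *Mrps24* (15.4%), and *Mrps6* (10.4% with *Slc5a3*), and their levels are uncertain to that extent. The other 77 members passed the filter in each of the 3 comparisons.

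Members varied little between mice of a group. The SD of log2 CPM within groups had a median of 0.110 over the 77 tested members, against 0.275 over the 16262 genes that passed the filter on low counts across the 12 mice. Members were also expressed at a higher level, with a mean log2 CPM of 5.54 beside 3.47 over those genes. The spread was not compared at matched levels. It was smallest for *Mrpl40* (0.0403), *Mrpl35* (0.0498), and *Mrpl10* (0.0526), and largest for *Mrpl44* (0.245), *Mrps6* (0.220), and *Mrpl54* (0.201). *Mrpl10* was at 110.1 to 125 CPM in the LFD mice, 125 to 132 CPM in the HFD mice, and 124 to 132 CPM in the icosapent ethyl–treated mice. *Mrpl44* was at 56.7 CPM in LFD mouse 2 and at 36.1 to 42.1 CPM in the other LFD mice. Its level was 56.0, 56.7, 41.5, and 44.1 CPM in HFD mice 1 to 4. In icosapent ethyl–treated mice 1 to 4 it was 53.7, 57.3, 46.1, and 41.1 CPM. Mice 1 and 2 of these groups were thus above mice 3 and 4, as LFD mouse 2 was above the other LFD mice. What sets these mice apart was not tested.

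The first comparison asked what high-fat feeding did to these mRNAs. By edgeR's quasi-likelihood test at an adjusted p below 0.05, none of the 77 members passed in either direction, whereas 230 of 15909 genes passed (1.45%). At an unadjusted p below 0.05 there were 6 members, each higher in HFD mice, and 24.8% of all genes. DESeq2's Wald test called 4 members, each higher in HFD mice, and 12.3% of all genes. Either share of members was below that of all genes. The median log2 fold change of the members was 0.023 (45 of 77 positive), beside -0.015 over all genes tested. Scaled to library totals without TMM, this median was -0.074 and that of all genes -0.114, so that its sign depended on the scaling while it stayed above the median of all genes.

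The absence of calls came with narrow intervals. The 95% confidence interval of the log2 fold change lay within 0.5 of 0 for 70 of the 77 members (90.9%), against 31.8% of all genes. This share was 81.7% for nuclear subunits of the respiratory chain and 57.0% for cytosolic ribosomal proteins. The median standard error was 0.093 for members, 0.114 and 0.102 for these lists, and 0.188 for all genes. An absolute log2 fold change above 0.3 was fitted for 4 members (5.19%), for 8.54% and 29.1% of these lists, and for 40.2% of all genes. The SD of the fitted values was 0.138 over members and 0.496 over all genes. The median was 0.034 for *Mrpl* and 0.021 for *Mrps* genes, 0.022 for the 46 members with bacterial homologs, and 0.024 for the 28 tested members specific to mitochondria.

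**Figure D3:**
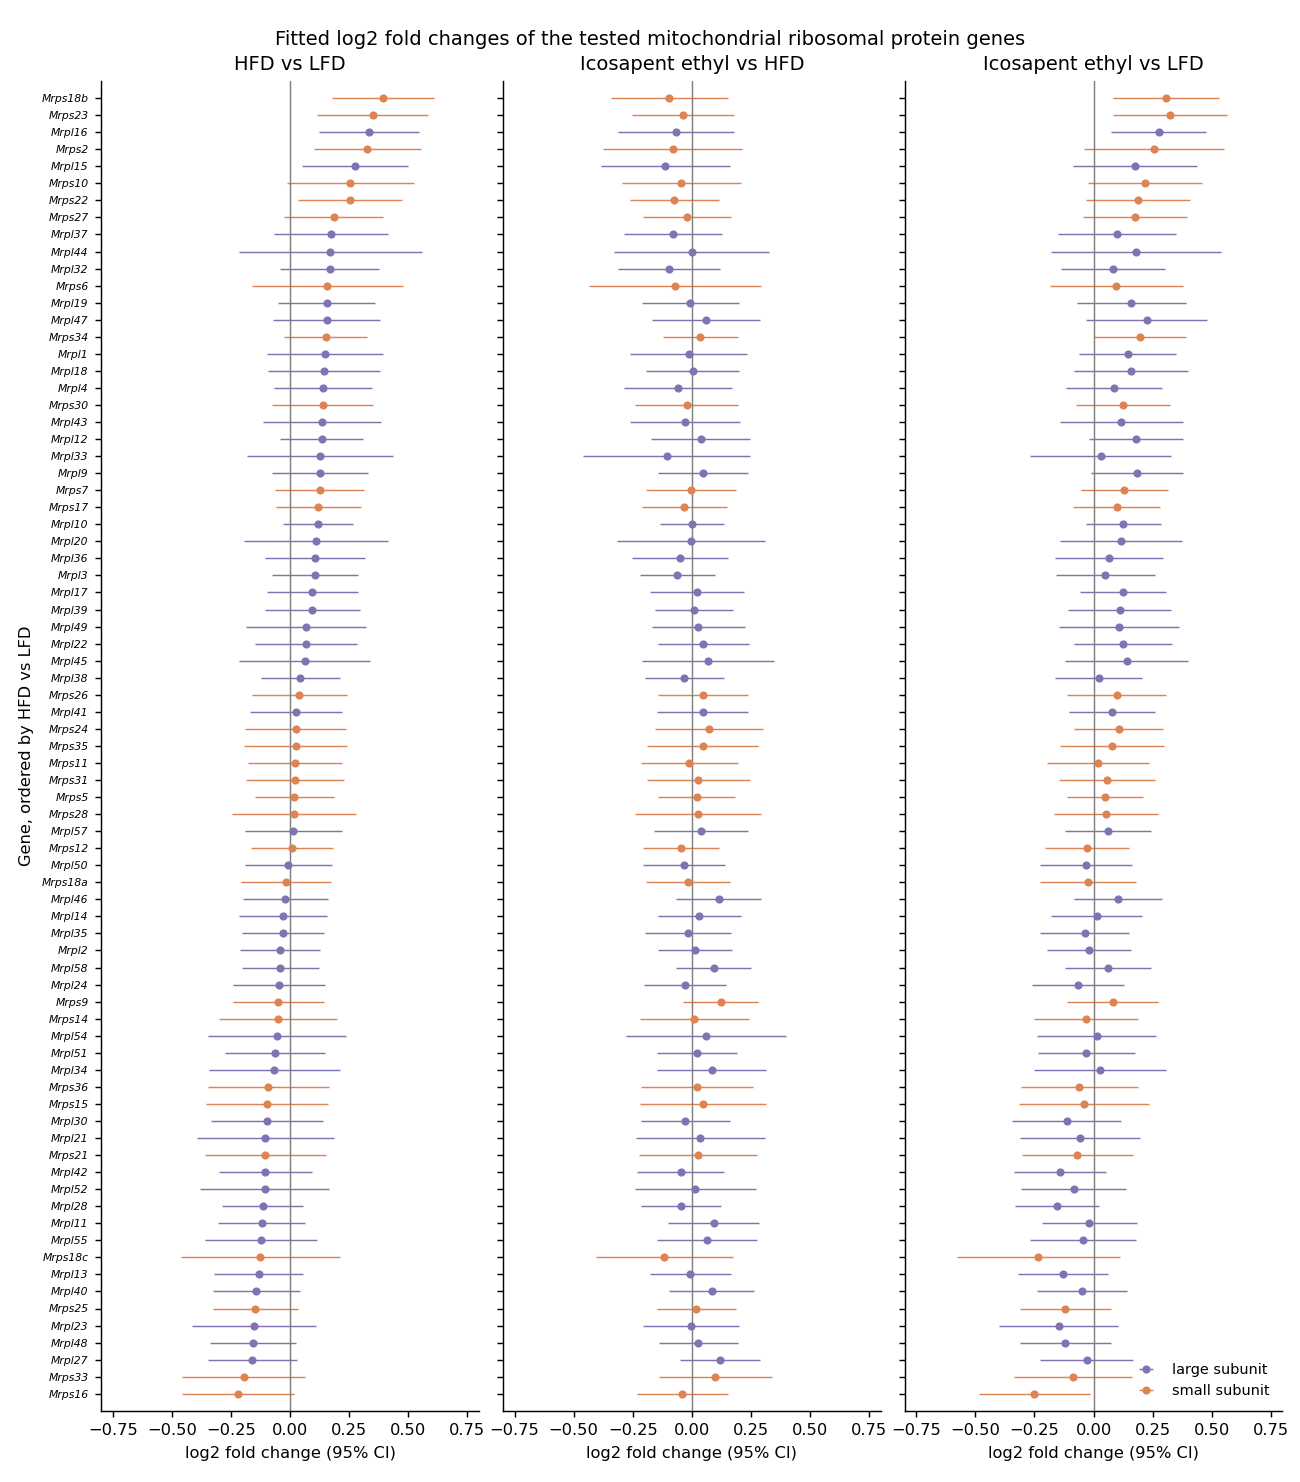
Fitted log2 fold change (point) and 95% confidence interval (line) on the horizontal axis for the 77 tested members, ordered by HFD versus LFD, in the 3 comparisons; large-subunit symbols are violet and small-subunit symbols orange. *Mrps18b* is highest (0.39) and *Mrps16* lowest (-0.22) in HFD versus LFD, and the intervals of icosapent ethyl–treated versus HFD mice lie within 0.5 of 0.

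The largest positive fold change of a member in HFD mice was that of *Mrps18b*. *Mrps18b* (ENSMUSG00000024436, chromosome 17 from 35910379 to 35916389, minus strand) encodes 1 of the S18 paralogs. It was at 24.8, 26.7, 27.5, and 27.9 CPM in LFD mice 2, 5, 6, and 7 and at 31.1, 33.6, 37.0, and 39.6 CPM in HFD mice 1 to 4. Each HFD mouse was above each LFD mouse. The log2 fold change was 0.39 (SE 0.096, 95% confidence interval 0.18 to 0.61, adjusted p = 0.0704 by edgeR). DESeq2 gave an adjusted p of 0.0129, and edgeR gave 0.0408 without HFD mouse 1. Of 7 alternative settings, 4 did not call *Mrps18b* (adjusted p up to 0.561 by edgeR), nor did 7 of the 8 fits with a mouse left out. Its log2 fold change was 0.29 to 0.46 over these settings. They include the mean of the chromaffin markers as a covariate, where edgeR called no gene.

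*Mrps23* (ENSMUSG00000023723, chromosome 11 from 88204388 to 88211507) encodes a small-subunit protein with no bacterial homolog. Its level was 87.0, 76.8, 71.3, and 68.3 CPM in the LFD mice and 96.4, 107, 88.2, and 98.6 CPM in the HFD mice. The groups did not overlap, although LFD mouse 2 came close to HFD mouse 3. The log2 fold change was 0.35 (SE 0.104, adjusted p = 0.0965 by edgeR and 0.0266 by DESeq2).

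*Mrpl16* (ENSMUSG00000024683, chromosome 19 from 11770391 to 11774960), a homolog of bacterial L16, was at 44.6, 44.9, 44.3, and 47.2 CPM in the LFD mice and at 48.9, 55.4, 61.7, and 63.7 CPM in the HFD mice. The LFD mice were close together and each was below the lowest HFD mouse. The log2 fold change was 0.33 (SE 0.093, adjusted p = 0.0873 by edgeR, 0.0378 by DESeq2, and 0.0372 by edgeR without HFD mouse 1). *Mrps2* (ENSMUSG00000035772, chromosome 2 from 28468066 to 28471178), a homolog of bacterial S2, was at 35.9, 33.2, 31.3, and 29.8 CPM in the LFD mice and at 40.0, 44.2, 36.9, and 43.4 CPM in the HFD mice. The groups did not overlap, and the log2 fold change was 0.33 (SE 0.10, adjusted p = 0.104 by edgeR and 0.0275 by DESeq2). Apart from DESeq2, the 6 other alternative settings called none of *Mrps23*, *Mrpl16*, and *Mrps2* (adjusted p up to 0.557, 0.615, and 0.593 by edgeR). With a mouse left out, *Mrps23* and *Mrps2* were called in none of the 8 fits, and *Mrpl16* was not called in 7 of 8.

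In all, HFD mice did not overlap with LFD mice from above in 6 members, that is, in these 4 genes, *Mrps22*, and *Mrps34*, where 7.71% of all genes showed such a pattern. *Mrps22*, another protein specific to mitochondria, had 32.7 to 39.4 CPM in LFD mice and reached 39.6 to 45.9 CPM in HFD mice (log2 fold change 0.25 with an SE of 0.097, edgeR adjusted p = 0.156). *Mrps34*, which was named after its values were seen, was at 64.1 to 75.5 and 77.4 to 81.1 CPM (log2 fold change 0.15 with an SE of 0.078, edgeR adjusted p = 0.261). The next largest fitted values, *Mrpl15* at 0.28 (adjusted p = 0.143), *Mrps10* at 0.26 (adjusted p = 0.221), and *Mrps27* at 0.18 (adjusted p = 0.250), came with overlapping groups. *Mrps27* encodes a pentatricopeptide repeat protein of the small subunit.

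On the other side, HFD mice lay below LFD mice without overlap in 1 member, *Mrpl40*, beside 5.81% of all genes. *Mrpl40* was at 26.8, 27.7, 29.4, and 27.3 CPM in the LFD mice and at 24.7, 25.6, 25.1, and 26.0 CPM in the HFD mice (log2 fold change -0.14 with an SE of 0.082, edgeR adjusted p = 0.305). *Mrps16*, a homolog of bacterial S16, had the lowest fitted log2 fold change of the members at -0.22 (SE 0.105, adjusted p = 0.228). It was at 54.6, 42.1, 54.2, and 51.1 CPM in the LFD mice and at 44.0, 44.5, 39.6, and 46.4 CPM in the HFD mice, and LFD mouse 5 was within the range of the HFD mice. The fitted values of *Mrps33* (-0.20), *Mrpl27* (-0.16), *Mrpl48* (-0.16), *Mrpl23* (-0.15), *Mrps25* (-0.15), and *Mrpl13* (-0.13) had adjusted p-values from 0.259 to 0.448.

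**Figure D4:**
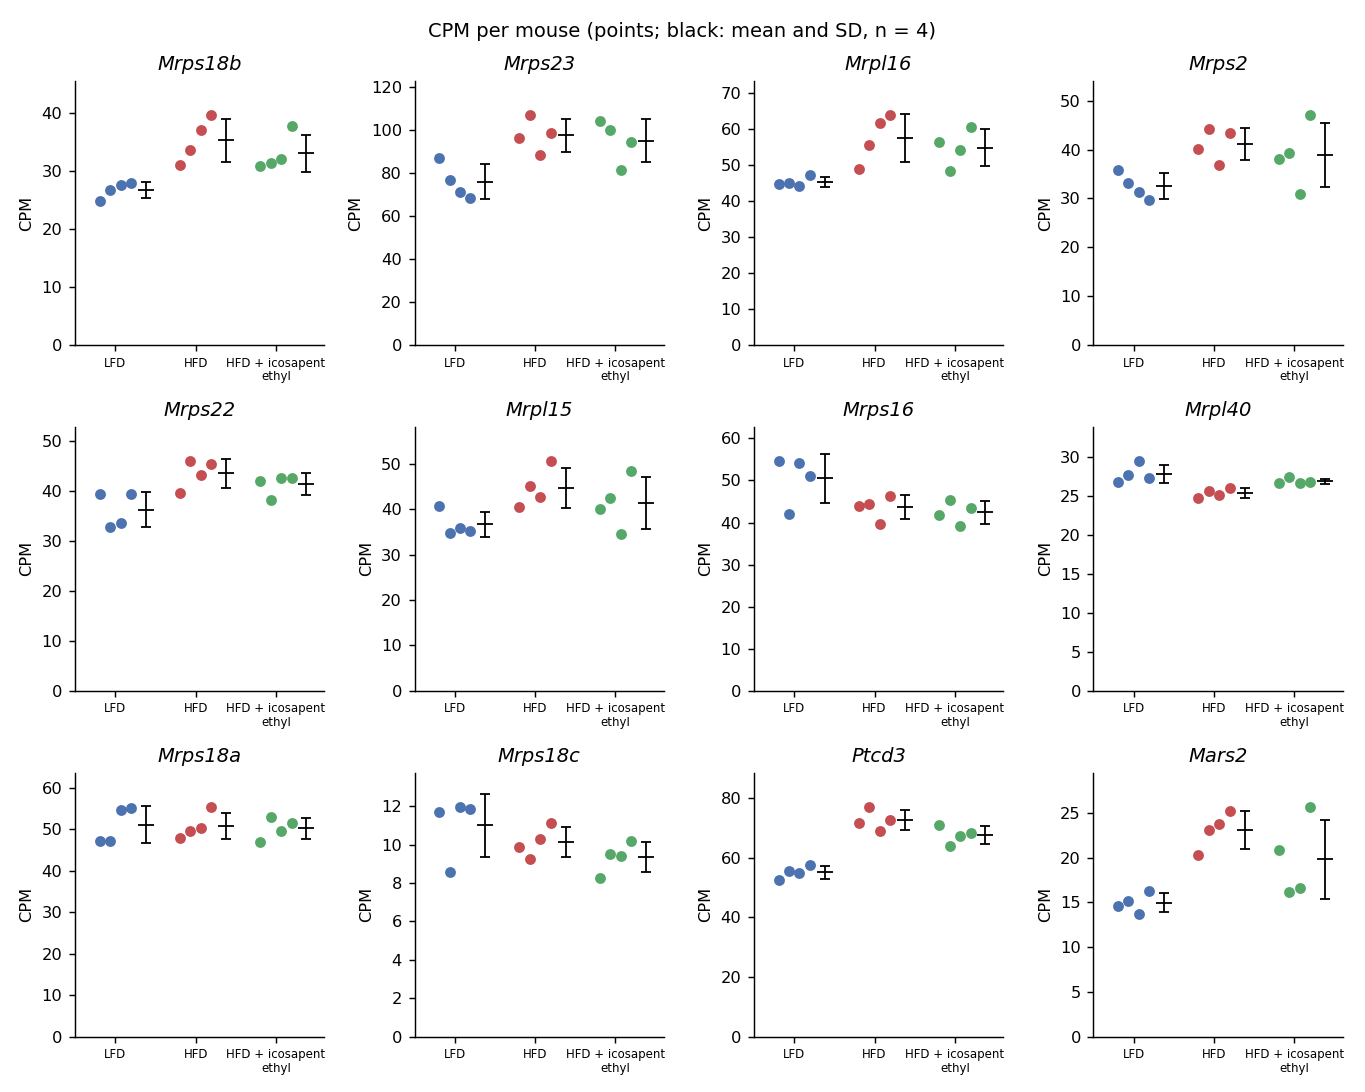
CPM (vertical axes, from 0) in each mouse by group for 10 members and for *Ptcd3* and *Mars2*; black marks are mean and SD of 4 mice. In *Mrps18b*, *Mrps23*, *Mrpl16*, *Mrps2*, *Mrps22*, *Ptcd3*, and *Mars2* each HFD mouse is above each LFD mouse, and in *Mrps18a* (51.0 and 50.7 CPM on average) the groups overlap.

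The S18 paralogs stood at different levels and in different order of change. *Mrps18a* was at 51.0 ± 4.49 CPM in LFD, 50.7 ± 3.18 CPM in HFD, and 50.2 ± 2.58 CPM in icosapent ethyl–treated mice (SD, n = 4). *Mrps18b* was at 26.7 ± 1.38, 35.3 ± 3.73, and 33.0 ± 3.16 CPM, and *Mrps18c* at 11.0 ± 1.64, 10.1 ± 0.787, and 9.34 ± 0.792 CPM, in the same groups. Their log2 fold changes in HFD versus LFD mice were -0.02 (95% confidence interval -0.21 to 0.17), 0.39 (0.18 to 0.61), and -0.13 (-0.46 to 0.21), with that of *Mrps18c* resting on a gene that shares exon bases with a neighbor. Whether these fold changes differed from one another was not tested. *Mrpl12* averaged 79.1 ± 4.07 CPM on the low-fat and 87.4 ± 7.08 CPM on the high-fat diet (log2 fold change 0.13 with an SE of 0.078, edgeR adjusted p = 0.311), and *Mrps36* 19.6 ± 1.71 and 18.6 ± 1.53 CPM (log2 fold change -0.09 with an SE of 0.113, adjusted p = 0.654).

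The 7 members with an NRF1 core in a promoter window had positive fitted log2 fold changes in HFD versus LFD mice, from 0.07 to 0.39 with a median of 0.117. Of the 61 other tested members with a window, 31 were positive and the median was 0.009. Over all tested genes, 273 of 431 with the core were positive (median 0.086), as were 5516 of 11225 without it (median -0.008). The 431 genes with the core, which include these members, ran from -1.54 to 1.41. Whether the core bears on the fold changes was not tested. Of the 25 tested members with an ETS core, 13 were positive (median 0.009), and over all genes with that core the median was 0.058. With a YY1 core, 5 of 8 members were positive (median 0.022), as were 238 of 368 of all genes (median 0.101). With CCAAT, 15 of 26 members were positive (median 0.023), and the median of all genes was 0.000458.

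Markers of other cells moved between these groups as well. The summed chromaffin markers ran from 6295 to 22168 CPM in LFD and from 3040 to 9830 CPM in HFD mice, 12 of 12 markers had a negative fitted fold change (median -1.25), and none was called by edgeR, with 9 at an unadjusted p below 0.05 and 6 called by DESeq2. The median log2 fold change was 0.50 for the cortex markers (12 of 12 positive), -0.56 for macrophage markers with 4 of 10 called lower, and -0.006 for endothelial markers. Adipocyte markers went both ways, with a median of 0.46, 7 positive and 3 negative values from -2.14 to 3.19, and 2 of 10 called higher by edgeR. In this fit without a covariate, edgeR called 1.45% of all genes, DESeq2 called 12.3%, and 24.8% were at an unadjusted p below 0.05. In bulk tissue, fewer cells of a type and less RNA per cell cannot be told apart. With the mean of the chromaffin markers as a covariate, the median of the members was 0.037, 2 members were higher and 0 lower at an unadjusted p below 0.05, and edgeR called no gene at all (0 genes higher and 0 lower). The share of all genes at an unadjusted p below 0.05 is not given for this fit.

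The proteins of the mitoribosome that carry other names gave 1 call. *Ptcd3* (ENSMUSG00000063884, chromosome 6 from 71880638 to 71908750, minus strand) encodes a pentatricopeptide repeat protein of the small subunit. It was at 52.4, 55.5, 54.8, and 57.6 CPM in the LFD mice and at 71.6, 76.9, 69.1, and 72.7 CPM in the HFD mice. The HFD mice were well above the LFD mice, and the log2 fold change was 0.39 (SE 0.068, adjusted p = 0.0400 by edgeR and 0.000112 by DESeq2). The call by edgeR was held with HFD mouse 1 left out and lost with each of the other 7 mice left out (adjusted p from 0.0601 to 0.137). With the chromaffin covariate, where edgeR called no gene at all, *Ptcd3* had an adjusted p of 0.449. Its log2 fold change was 0.36 to 0.43 with a mouse left out and 0.34 with that covariate. In icosapent ethyl–treated mice *Ptcd3* was at 63.8 to 71.0 CPM, above the LFD mice and overlapping with the HFD mice.

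Of the other 4, *Gadd45gip1*, which encodes a large-subunit protein near the exit of the peptide tunnel, had 79.9 to 87.3 CPM in LFD mice and reached 88.8 to 107 CPM in HFD mice without overlap (log2 fold change 0.17 with an SE of 0.078, edgeR adjusted p = 0.212). *Dap3*, a GTP-binding protein of the small subunit, had a log2 fold change of 0.06, *Aurkaip1* of -0.12, and *Chchd1* of -0.11, each with overlapping groups and adjusted p-values from 0.438 to 0.746.

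The factors that serve the mitoribosome had higher medians than its proteins. For the counts that follow, 24.8% of all genes were at an unadjusted p below 0.05 in this comparison. Over all genes, edgeR called 1.45% and DESeq2 12.3%. Of 27 assembly factors, 21 were positive in HFD versus LFD mice (median 0.136) and none was called by edgeR or by DESeq2, with 2 at an unadjusted p below 0.05. A list of 17 genes held translation factors and associated genes such as *Lrpprc*, *Slirp*, *Oxa1l*, and *Letm1*. Of these 17, 16 were positive (median 0.209), none was called by edgeR, 6 were at an unadjusted p below 0.05, and 3 were called by DESeq2. *Lrpprc* and *Letm1* were among these 6. The highest fitted value of that list was 0.65 for *Taco1* (SE 0.157, adjusted p = 0.0662), the activator of translation of the mRNA for cytochrome c oxidase subunit I. *Lrpprc*, which stabilizes mitochondrial mRNAs, had 0.39 (SE 0.088, adjusted p = 0.0592). The differences between these lists and the members were not tested.

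Of 22 mitochondrial aminoacyl-tRNA synthetases and related enzymes, 20 were positive (median 0.192), and 1 was called. *Mars2* (ENSMUSG00000046994, chromosome 1 from 55237177 to 55248470), the methionyl-tRNA synthetase of mitochondria, was at 14.6, 15.2, 13.8, and 16.3 CPM in the LFD mice and at 20.3, 23.1, 23.8, and 25.3 CPM in the HFD mice. Each HFD mouse was above each LFD mouse, and the log2 fold change was 0.62 (SE 0.108, adjusted p = 0.0400 by edgeR and 3.36e-05 by DESeq2). Here too, edgeR's call was held without HFD mouse 1, and it was lost without each of the other 7 mice (adjusted p from 0.0601 to 0.135). With the chromaffin covariate, where edgeR called no gene, the adjusted p of *Mars2* was 0.448. The log2 fold change stayed between 0.57 and 0.67 with a mouse left out, and was 0.49 with the covariate. A list of 30 genes held those for mitochondrial transcription and RNA processing. It also held nuclear regulators such as *Nrf1*, *Yy1*, and *Myc*, and the proteases *Lonp1* and *Clpp*. Of these 30, 21 were positive (median 0.148) and 10 were at an unadjusted p below 0.05 by edgeR. None was called by edgeR, and 5 were called by DESeq2 (*Elac2*, *Supv3l1*, *Mtpap*, *Lonp1*, and *Myc*). The shares of all genes were 24.8% at that unadjusted p, 1.45% by edgeR, and 12.3% by DESeq2.

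The mRNAs that the mitoribosome translates, encoded in mitochondrial DNA, had 11 of 13 positive fold changes (median 0.203), with none called by edgeR or DESeq2 and none at an unadjusted p below 0.05. The nuclear subunits of the respiratory chain, many of which join these products, had 26 of 82 positive (median -0.076), with 0 called by edgeR, 9 at an unadjusted p below 0.05, and 3 called by DESeq2. The proteins of the cytosolic ribosome had 1 of 79 positive (median -0.263), with 0 called by edgeR, 52 at an unadjusted p below 0.05, each lower in HFD mice, and 3 called by DESeq2. Beside these lists, 24.8% of all genes were at that unadjusted p, and edgeR called 1.45% and DESeq2 12.3% of all genes. The median of the mitochondrial ribosomal proteins (0.023) thus lay apart from that of the cytosolic ones. Fitted values also moved with gene length, whose part in this was not tested. Other genes with shorter exons than the members' median had a median of -0.131 and those with longer exons 0.019, and the shorter and longer members had medians of 0.013 and 0.044.

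**Figure D5:**
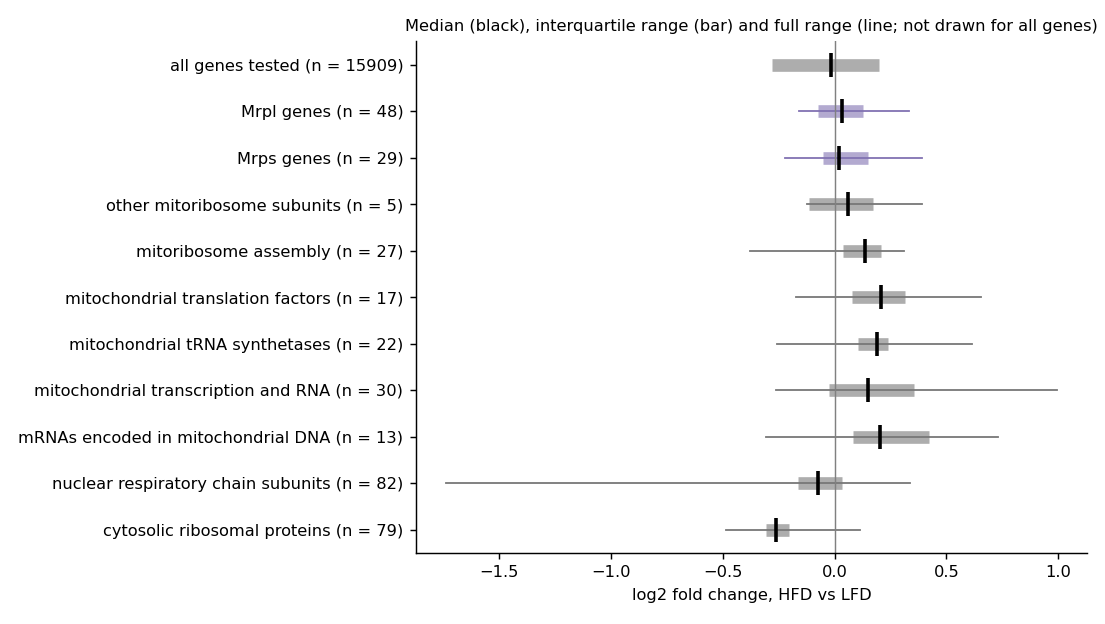
Log2 fold change in HFD versus LFD mice (horizontal axis) by gene list, with the number of genes tested; black ticks are medians, bars interquartile ranges, and lines full ranges (not drawn for all genes). The medians run from -0.263 for cytosolic ribosomal proteins through 0.034 and 0.021 for *Mrpl* and *Mrps* genes to 0.209 for the list labeled mitochondrial translation factors. That list also holds associated genes such as *Lrpprc* and *Letm1*.

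The second comparison asked what icosapent ethyl did on top of the high-fat diet. None of the 77 members was called by edgeR, nor was any of the 15913 genes (0%). No member had an unadjusted p below 0.05, where 1.39% of all genes did, and DESeq2 called no member and 0.0268% of all genes. The median log2 fold change of the members was 0.004, with an SD of 0.057, and the 95% confidence intervals of the 77 members lay within 0.5 of 0. The median over all genes was also 0.004.

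Icosapent ethyl–treated mice were above HFD mice without overlap in 3 members (*Mrpl40*, *Mrpl46*, and *Mrps9*), beside 0.484% of all genes, and below them in none, beside 0.66% of all genes. *Mrps9*, a homolog of bacterial S9, was at 48.5, 50.1, 45.0, and 45.5 CPM in HFD mice 1 to 4 and at 50.6, 52.0, 52.2, and 50.9 CPM in icosapent ethyl–treated mice 1 to 4. The lowest treated mouse was less than 1 CPM above the highest HFD mouse (log2 fold change 0.12, SE 0.071, adjusted p near 1 by edgeR). *Mrpl46* was at 32.0 to 34.9 CPM in HFD and 34.9 to 39.1 CPM in treated mice (log2 fold change 0.11 with an SE of 0.080). *Mrpl40* was at 24.7 to 26.0 and 26.6 to 27.4 CPM (log2 fold change 0.08 with an SE of 0.079) and in the treated mice overlapped with the LFD mice. *Mrpl27* had a log2 fold change of 0.12 with overlapping groups.

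The lowest fitted values in treated mice were those of *Mrps18c* (-0.12), *Mrpl15* (-0.11), and *Mrpl33* (-0.11), with standard errors from 0.120 to 0.156. *Mrps18b* was at 30.9, 31.4, 32.1, and 37.7 CPM in the treated mice, which overlapped with the HFD mice, and its log2 fold change was -0.10 with a 95% confidence interval from -0.34 to 0.15. Those of *Mrps23* (-0.04, -0.25 to 0.18), *Mrpl16* (-0.07, -0.31 to 0.18), and *Mrps2* (-0.08, -0.38 to 0.21) also held 0. The treated mice had 5434 to 10742 CPM of chromaffin markers.

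The third comparison set icosapent ethyl–treated against LFD mice, which differed in both diet and supplement. It shares the LFD mice with the first comparison and the treated mice with the second, so that it is no separate evidence. No member was called by edgeR, nor was any of 15935 genes (0%). At an unadjusted p below 0.05 there were 4 members higher and 1 lower, beside 14% of all genes, and DESeq2 called no member and 2.69% of all genes. The median of the members was 0.062 (50 of 77 positive), beside -0.004 over all genes.

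Treated mice were above LFD mice without overlap in 2 members, *Mrpl16* and *Mrps18b*, beside 4.04% of all genes, and below them in none, beside 3.69%. *Mrps18b* had a log2 fold change of 0.31 (SE 0.10), *Mrpl16* of 0.28 (SE 0.090), and *Mrps23* of 0.32 (SE 0.108), each with an adjusted p of 0.267 by edgeR. *Mrpl16* was at 56.2, 48.2, 54.0, and 60.6 CPM in the treated mice, and *Mrps23* at 104, 99.7, 81.4, and 94.4 CPM, where treated mouse 3 was below LFD mouse 2. At the low end were *Mrps16* (-0.25, SE 0.105, adjusted p = 0.342), *Mrps18c* (-0.23, SE 0.154, adjusted p = 0.501), and *Mrpl28* (-0.15, SE 0.079, adjusted p = 0.409). *Mrps16* was at 41.8, 45.4, 39.1, and 43.4 CPM in the treated mice, which LFD mouse 5, at 42.1 CPM, overlapped.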

How the data were processed

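RNA-seq libraries of 12 adrenal cortex samples, 4 per group, were analysed from the raw counts per gene that the authors deposited. Per the methods of the study, reads of 75 bases were trimmed with cutadapt, aligned to GRCm38 with STAR, and counted over GENCODE M12 genes with HTSeq (version 0.6.1p1 per the labels, minimum alignment quality 20). Counting was strand-specific, for reverse-stranded libraries, in union mode. HTSeq gives 1 whole-number count per gene, and a read that fits several genes is set aside. The files hold 34785979 to 67295963 counts on genes per sample.

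Groups came from the labels. Symbols, exon lengths, and coordinates came from GENCODE M21 (GRCm38), which named 49326 of the 49585 gene IDs. For each comparison, the 8 mice of its 2 groups were fitted over all genes that passed filterByExpr (minimum count 10) with TMM scaling in edgeR 4.0.16 (R 4.3.3, robust quasi-likelihood test, two-sided, Benjamini-Hochberg adjustment over all genes, threshold 0.05). The p-values measure the spread between mice. CPM were scaled by TMM over the 12 mice. DESeq2 1.42.0 served as the alternative, beside other scalings, no filter, all 12 mice in 1 fit, marker means as covariates, a replicate block, and leaving out each mouse. In data simulated for HFD versus LFD over 15746 genes, 103 of 200 genes changed 2-fold were called, with 9 unchanged genes. No pair of libraries was a copy.

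Members and lists were chosen with earlier results of these data known. Genes were named if called, among the 8 largest fold changes each way in HFD versus LFD or the 3 largest in the other comparisons, among the 5 highest or lowest per kilobase or the 3 largest or smallest in spread, or as the S18 paralogs, *Mrpl12*, *Mrps36*, and mitoribosome proteins with other names. HFD and icosapent ethyl–treated mice share the numbers 1 to 4, and deviations from the group means correlated at 0.240, 0.116, 0.340, and 0.632 between mice of the same number, so that the number was also fitted as a block. What a shared number stands for is not given in the sources used here. Of the 4 HFD mice, 3 correlated more with a treated mouse of another number: mouse 1 with treated mouse 2 (0.598), mouse 2 with treated mouse 1 (0.443), and mouse 3 with treated mouse 4 (0.368). HFD mice 1 and 2 correlated negatively with treated mice 3 and 4 (-0.634 to -0.134). The same held for HFD mice 3 and 4 with treated mice 1 and 2 (-0.428 to -0.324). The block was fitted only for treated versus HFD mice, and no fit against LFD mice held a term for such a division.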

Additional observations from a re-analysis of the deposited data

Results flagged for a closer look

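In each of 132 groups of 4 values, the lowest and the highest mouse were checked for their distance from the others with Dixon's ratio at its 95% critical value. The values were those of named members, mitoribosome proteins with other names, *Mars2*, summed levels, and their ratio, by group. *Mrpl53*, at 0 in each mouse, was included and could not be past it. Of the 132 groups, 7 were past it, and chance alone gives about 1 in 20. LFD mouse 5 accounted for 5 of the 7, but its *Mrpl* and *Mrps* sums make up its members' sum and are not separate observations. Its members summed to 3573.5 CPM, while the other LFD mice were at 3942 to 3958 CPM, and both the *Mrpl* (2324 CPM) and the *Mrps* sum (1249 CPM) stood apart. In the same mouse *Mrps25* was at 48.0 CPM, with 55.1 to 56.1 CPM in the other LFD mice, and *Mrps18c* at 8.55 CPM, with 11.67 to 11.95 CPM in the others. *Mrps35* stood apart on the high side in LFD mouse 2, at 39.3 CPM with the others at 35.1 to 35.6 CPM. *Mrps22* was low in icosapent ethyl–treated mouse 2, at 38.1 CPM with the others at 42.0 to 42.6 CPM. Without LFD mouse 5, edgeR called 0 members in HFD versus LFD mice, 4 members were higher and 4 lower at an unadjusted p below 0.05, and the median log2 fold change of the members was 0.011. The share of all genes at that unadjusted p is not given for this fit.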

How the results depend on the processing

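The number of members called higher in HFD versus LFD mice was 0 in edgeR at an adjusted p below 0.05. It was 3 at an adjusted p below 0.1 and 4 by DESeq2, which called 12.3% of all genes. It was 1 with the 12 mice in 1 fit (*Mrps18b*, adjusted p = 0.0491) and 1 with the adipocyte marker mean as a covariate (*Mrps18b*, adjusted p = 0.0345). With 1 mouse left out it was 0 to 2, the 2 being without HFD mouse 1. Except for DESeq2, the share of all genes called is not given for these alternatives. The counts therefore do not show whether members gained calls more than other genes. The number called lower was 0 in each alternative, as were the calls of members in both comparisons with icosapent ethyl–treated mice. The median of the members was -0.074 in HFD versus LFD and 0.066 in icosapent ethyl–treated versus HFD mice with library totals in place of TMM, where the medians of all genes were -0.114 and 0.063. With a mouse left out, the median of HFD versus LFD ranged from 0.011 to 0.046 and that of icosapent ethyl–treated versus HFD mice from -0.014 to 0.027. The replicate block gave 0 calls of members and a median of 0.007 for icosapent ethyl–treated versus HFD mice, and changed no call. *Mrpl15* in that comparison turned from -0.112 to 0.0118 with the chromaffin covariate, and the cause was not tested. *Ptcd3* lost its call without TMM (adjusted p = 0.133) and without a filter (0.0520), and *Mars2* without TMM (0.0696). With 4 mice per group, 103 of 200 simulated 2-fold changes were called. These genes were drawn at random from all genes tested, so that this share is not that of the members. In HFD versus LFD mice the median standard error was 0.188 over all genes and 0.093 over members. A missing call still does not show that a gene was the same in both groups, and the confidence intervals give the range for each member.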
